A study of Mus musculus with 2 samples.

Results

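Alcohol dehydrogenases, aldo-keto reductases, carbonyl reductases, retinol dehydrogenases and aldehyde dehydrogenases were examined in GIF-5 cells, a mouse gastric epithelial cell line, after sorting for the surface glycoprotein CD133. The set was taken by name: every gene whose array name began with Adh, Akr, Cbr, Dhrs, Rdh or Aldh followed directly by a digit. This gave 65 of the 27670 genes on the array, measured by 92 of 41174 probes. All cells were of the genotype Runx3-/-p53-/-, so the CD133-negative comparison cells carried both deletions too, and no wild-type cells were compared. Cells grown in serum were stained with a PE-labelled antibody and separated by FACS into a CD133-positive and a CD133-negative fraction. Both fractions were compared directly on each of 2 two-colour arrays, with the positive fraction in Cy3 and the negative fraction in Cy5. Although the arrays are labelled as biological replicates, nothing states whether cultures or sorts were separate, so p-values measure only the spread between these 2 arrays, which may be technical. The dye orientation was the same on both arrays, so an effect of the dye and an effect of the fraction cannot be told apart.

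These enzymes move hydride between NAD(P)H and small alcohols, aldehydes and ketones. Medium-chain alcohol dehydrogenases oxidise ethanol, retinol and other alcohols; aldo-keto and carbonyl reductases reduce aldehydes, quinones and steroid or prostaglandin ketones; aldehyde dehydrogenases convert aldehydes to acids. Several form a route from retinol through retinal to retinoic acid, and the gastric epithelium is a known site of alcohol dehydrogenase expression.

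A gene was tested where at least 1 fraction was well above background on both arrays, as the scanner program judged it, and 51 of the 65 genes passed. Each was represented by its brightest tested probe. Ratios are log2 of CD133-positive over CD133-negative, so a value of 1 means 2-fold higher in the positive fraction, and a gene was called where limma's adjusted p over all 15267 tested genes was under 0.05. In these bulk fractions, fewer cells expressing a gene and less of its RNA per cell cannot be told apart. The sorted marker itself, Prom1, which encodes CD133, had ratios of 3.83 and 3.73. The deleted genes had mean ratios of 0.05 for Runx3 and -0.05 for Trp53, neither called; both fractions carry the deletions, so these values check no label. The arrays' ratios had a Pearson r of 0.771 across all tested genes, which are not independent replicates, and ratios spread more widely on array 2 (SD 0.76) than on array 1 (SD 0.60). No spot was saturated.

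Adh1, Adh7, Cbr1 and Cbr3 were called higher in the CD133-positive fraction, and no gene of the set was called lower. Adh1 and Adh7 were about 20-fold higher and stand side by side on chromosome 3. Cbr3 was 6.22-fold and Cbr1 3.27-fold higher, and they are neighbours on chromosome 16. The 4 called genes of 51 tested stand against 1.4% of all tested genes called higher and 0.275% called lower. The same 4 genes were at least 2-fold higher on both arrays, against 2.5% of all tested genes; none was at least 2-fold lower on both, against 2.12%. At an unadjusted limma p under 0.05, 15 genes of the set were higher and 3 lower, against 11.89% and 15.98% of all tested genes. With median centring in place of loess 11 were called higher and 3 lower, against 13.4% of all tested genes in each direction. The 3 lower were Aldh18a1, Aldh3b1 and Aldh3b2.

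The start regions of these genes are shown because all 4 lie in adjacent pairs that moved together. Each is the 250 bases before the RefSeq start site of GRCm38.p6, 5′ to 3′ on the gene's strand; capitals mark, on either strand, the TATA box letters TATAAA, the CCAAT box, the GC box spelled as GGGCGG and the AP-1 element searched as TGANTCA. These motifs were chosen after the windows had been read.
Adh1, chr3:138277335-138277584, plus strand: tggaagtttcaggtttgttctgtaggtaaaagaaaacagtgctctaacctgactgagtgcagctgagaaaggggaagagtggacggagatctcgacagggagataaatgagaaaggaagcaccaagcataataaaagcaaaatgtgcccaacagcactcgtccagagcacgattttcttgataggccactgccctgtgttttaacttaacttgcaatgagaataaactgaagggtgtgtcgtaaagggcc
Adh7, chr3:138217523-138217772, plus strand: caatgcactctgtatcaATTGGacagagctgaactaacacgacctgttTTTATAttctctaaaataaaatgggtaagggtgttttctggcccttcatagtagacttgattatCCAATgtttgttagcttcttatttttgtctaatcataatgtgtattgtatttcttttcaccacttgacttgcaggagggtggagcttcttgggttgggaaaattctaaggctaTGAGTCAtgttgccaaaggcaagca
Cbr1, chr16:93607587-93607836, plus strand: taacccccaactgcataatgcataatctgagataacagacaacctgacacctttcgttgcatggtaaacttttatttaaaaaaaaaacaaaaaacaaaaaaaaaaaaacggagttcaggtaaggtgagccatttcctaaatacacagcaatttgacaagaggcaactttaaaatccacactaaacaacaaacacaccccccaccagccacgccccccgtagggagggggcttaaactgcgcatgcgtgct
Cbr3, chr16:93682969-93683218, plus strand: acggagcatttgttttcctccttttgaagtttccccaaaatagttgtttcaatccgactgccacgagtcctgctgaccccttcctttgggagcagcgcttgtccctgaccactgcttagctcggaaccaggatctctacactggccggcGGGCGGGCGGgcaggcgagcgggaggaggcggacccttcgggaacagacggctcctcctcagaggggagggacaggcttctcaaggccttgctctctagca

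The 4 windows have little in common by these letters. Adh7 held a TATA, 2 CCAAT and 1 AP-1 match, Cbr3 held 2 GC matches that overlap, and Adh1 and Cbr1 held none. GC content was 44.8% for Adh1, 38.0% for Adh7, 41.6% for Cbr1 and 59.6% for Cbr3. The antioxidant response core TGACNNNGC, the E-box CACGTG and the DR5 retinoic acid element were in none of the 4. Over the 59 windows found for 52 of the 65 genes, the antioxidant core was in 6.78% and the E-box in 8.47%, against 10.2% and 6.04% of 32536 windows of all genes. TATA was in 15.3% against 12.3%, CCAAT in 45.8% against 33.8%, GC in 25.4% against 33.0% and AP-1 in 10.2% against 6.73%. A match describes letters, not a bound site.

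Of the 4 tested cytosolic alcohol dehydrogenases, Adh1 and Adh7 rose and Adh6a and Adh5 did not pass. Adh1 encodes the classical ethanol-oxidising enzyme, which also acts on retinol. Its normalised log2 intensity was 14.47 and 14.43 in the positive fraction and 10.00 and 9.92 in the negative fraction, on array 1 and array 2 in turn. The positive values lay far above both negative values. The log2 ratios were 4.47 and 4.51, with a mean of 4.49 ± 0.14 (moderated SE, n = 2 arrays; limma adjusted p = 0.0096), which is 22.4-fold and the 17th highest mean ratio of all tested genes. The moderated SE is limma's, which draws on the spread of all genes; the SD of the 2 ratios themselves was 0.028. A second Adh1 probe gave 5.35 and 5.18, higher by 0.78 on average, the widest gap between 2 tested probes of a gene in the set. Another probe, designed on a separate cDNA, was not tested because it was dim, with ratios of 0.43 and 0.19.

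Adh7 encodes the stomach-type class of alcohol dehydrogenase, which is efficient with retinol. Its log2 intensity was 11.69 and 11.85 in the positive fraction and 7.81 and 7.03 in the negative fraction. The positive fraction was nearly level between the arrays, and the difference between the ratios of 3.87 and 4.83 lay mainly in the negative fraction. The mean was 4.35 ± 0.28 (moderated SE, n = 2; limma adjusted p = 0.023), which is 20.4-fold. The SD of the 2 ratios was 0.68, so the moderated SE is smaller than the arrays alone would give.

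Adh6a, the next gene along from Adh1, was above background in the positive fraction on both arrays and in the negative fraction on neither. Its ratios were 1.06 and 0.19, both above 0, and the mean of 0.62 did not pass (limma adjusted p = 0.22). Such a ratio rests on a side that was not above background. The dim side was taken at the larger of its own signal and the lowest signal judged above background. This gave 1.54-fold higher in the positive fraction, the same as the mean over both arrays, and it is not a lower limit for each array. The ratios deposited for this probe, from the scanner program's background-subtracted signals, were 4.03 and 2.70 on the log2 scale, and with those signals Adh6a was called higher.

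Adh5, the glutathione-dependent formaldehyde dehydrogenase that most tissues express, had log2 intensities of 13.91 and 13.98 in the positive and 13.94 and 13.73 in the negative fraction. The fractions overlapped. Its ratios were -0.03 and 0.25 (limma adjusted p = 0.71), and the sign of the mean turned with median centring. Adh4, next to Adh5, and the pseudogene Adh6-ps1 were not above background in either fraction. Within this gene group, then, the called members were the neighbours Adh7 and Adh1.

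**Figure D1:**
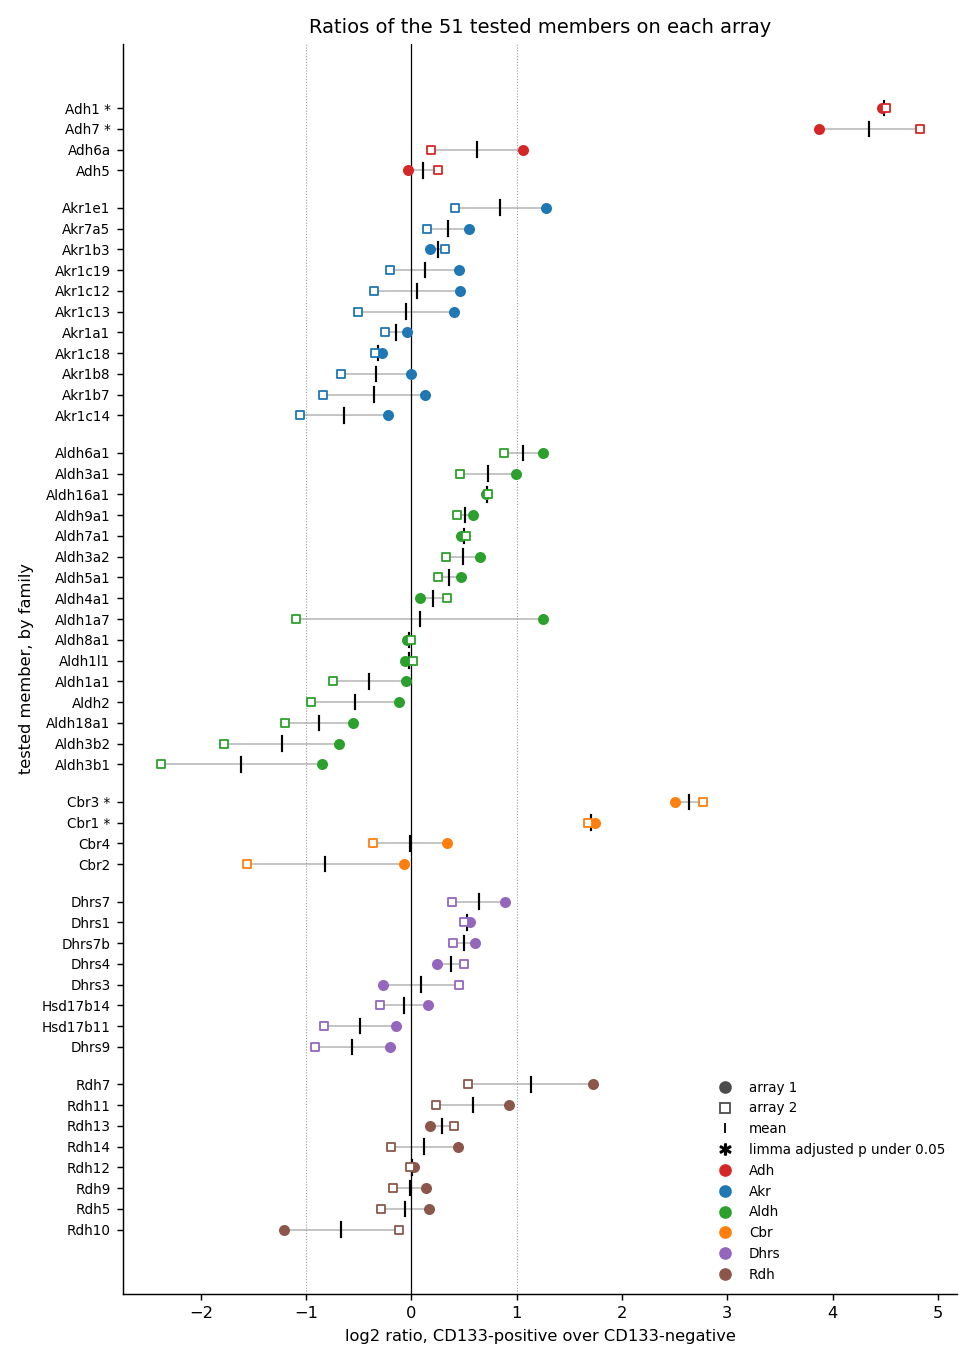
Log2 ratio of CD133-positive over CD133-negative (x axis) for the 51 tested genes, listed by family (y axis). Filled circles are array 1, open squares array 2, black ticks the mean, dotted lines 2-fold; Adh1, Adh7, Cbr3 and Cbr1, marked with an asterisk, are the only genes past 1 on both arrays.

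The carbonyl reductases, short-chain enzymes that reduce quinones, prostaglandins and xenobiotic ketones, also split. Cbr3 had log2 intensities of 14.53 and 14.02 in the positive and 12.02 and 11.25 in the negative fraction. Its ratios of 2.51 and 2.77 gave a mean of 2.64 ± 0.15 (moderated SE, n = 2; SD 0.18; limma adjusted p = 0.018). Cbr1, the broad-range cytosolic carbonyl reductase, had 13.30 and 13.03 in the positive and 11.56 and 11.36 in the negative fraction. Its ratios of 1.74 and 1.67 gave a mean of 1.71 ± 0.14 (moderated SE, n = 2; SD 0.050; limma adjusted p = 0.031). In both genes the lowest positive value was above the highest negative value. Cbr1 and Cbr3 are close paralogues, and how far each probe reads the other transcript was not examined.

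Cbr2 and Cbr4, which act in mitochondria, did not pass. Cbr2 had log2 intensities of 6.39 and 6.72 in the positive and 6.47 and 8.28 in the negative fraction, so that its ratios of -0.07 and -1.56 came apart through the negative fraction of array 2. The mean was -0.82 (limma adjusted p = 0.28). Cbr4, a part of mitochondrial fatty acid synthesis, had ratios of 0.34 and -0.37. Over the 4 carbonyl reductases the median of the mean ratios was 0.85.

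**Figure D2:**
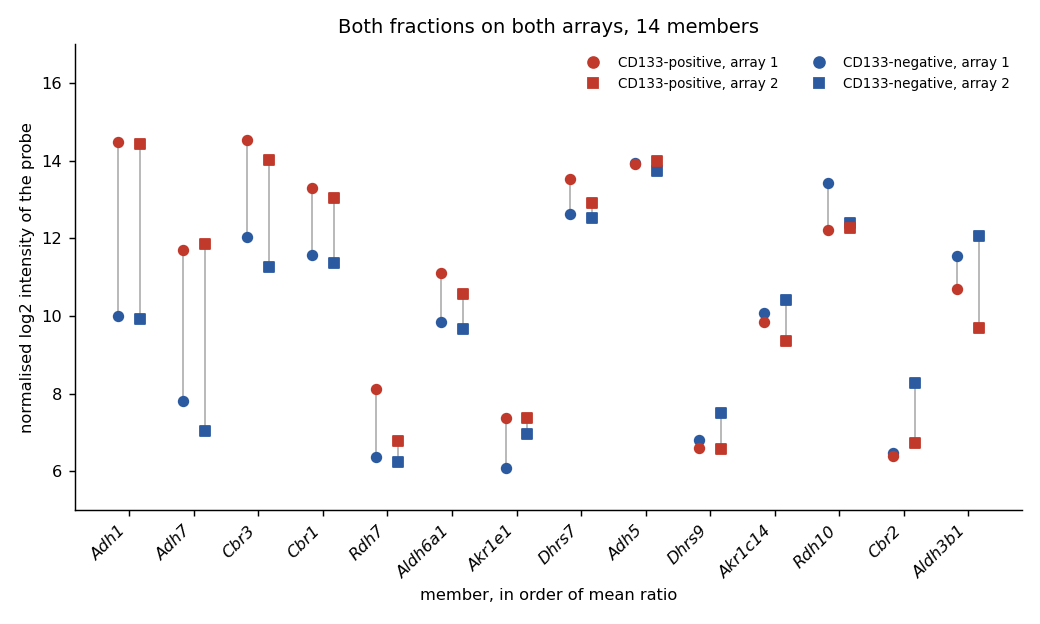
Normalised log2 probe intensity (y axis) in the CD133-positive (red) and CD133-negative (blue) fraction on array 1 (circles) and array 2 (squares) for 14 genes (x axis), the called genes and the highest and lowest of each family. The fractions overlap in Adh5 and Cbr2 and are apart in the other genes shown, with the widest gaps in Adh1, Adh7, Cbr3 and Cbr1. Heights of different probes are not comparable.

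Some markers of gastric surface cells and of hepatocytes were also called higher in the positive fraction. Of 11 tested gastric epithelial markers, Tff1 (4.40), Gkn2 (5.60) and Muc1 (1.78), all products of mucous surface cells, were called higher. Over all tested genes 1.4% were called higher. Tff2 had a mean ratio of 2.71 that did not pass (limma adjusted p = 0.064). Gkn1 (1.02), Pgc (0.95), Cldn18 (0.79) and Cdh1 (0.42) were above 0 on both arrays and were not called. The negative fraction of Gkn1 was above background on neither array. The keratins of simple epithelia were on the other side of 0, with mean ratios of -0.78 for Krt8, -0.54 for Krt18 and -0.79 for Krt19, none of them called. Epcam was above background only in the negative fraction of 1 array. All 4 tested hepatocyte markers were above 0 on both arrays, against 32.6% of all tested genes. Alb (2.75) and Ttr (1.81, with the negative fraction above background on 1 array only) rose. Afp had a mean of 2.15 and was not called, Cps1 was above background only in the positive fraction and was not called, and Cyp2e1 was above background in neither. Of the endothelial markers Cdh5, above background only in the positive fraction, was called higher, while Pecam1 and Tek were above background in neither; none of 4 tested blood and 2 tested fibroblast or muscle markers was called, and Ptprc, Itgam, Pdgfrb, Dcn and Lum were not above background. The part of these markers in the rise of Adh1, Adh7, Cbr1 and Cbr3 was not tested.

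No aldo-keto reductase was called in either direction. Of 15 genes 11 were tested, 1 was higher and 0 lower at an unadjusted limma p under 0.05, against 11.89% and 15.98% of all tested genes, and the median of the mean ratios was -0.05. The aldehyde and glucose reductases Akr1a1 and Akr1b3 were close to level. Akr1a1, the general aldehyde reductase, had ratios of -0.04 and -0.25. Akr1b3, aldose reductase, had 0.17 and 0.32. Its neighbour Akr1b8, a reductase of reactive aldehydes, had -0.0041 and -0.67. Akr1b7, first known from the vas deferens, had 0.13 and -0.84, with the positive fraction above background on 1 array only. Akr7a5, which reduces succinic semialdehyde and aflatoxin aldehyde, had 0.55 and 0.15. The means of Akr1b3 and Akr1b7 changed sign with median centring.

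The Akr1c genes, which reduce steroid ketones or oxidise steroid hydroxyl groups, form a run on chromosome 13 with Akr1e1. Akr1c14, a 3-alpha-hydroxysteroid dehydrogenase, had log2 intensities of 9.85 and 9.36 in the positive and 10.07 and 10.41 in the negative fraction. Its ratios of -0.22 and -1.06 gave the lowest mean of the family, -0.64 (limma adjusted p = 0.21). Akr1c12, Akr1c13 and Akr1c19 went opposite ways on the arrays, with ratios of 0.46 and -0.35, 0.41 and -0.51, and 0.45 and -0.20. For these probes the negative fraction was nearly level between the arrays, and the positive fraction was lower on array 2. A second tested Akr1c19 probe did not share this pattern: its ratios were 0.76 and 0.81, both above 0, from log2 intensities of 13.35 and 12.94 in the positive and 12.58 and 12.12 in the negative fraction. They are closely similar paralogues, so their probes may share signal and they are not separate observations.

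Akr1c18, the 20-alpha-hydroxysteroid dehydrogenase that inactivates progesterone, was above background in the negative fraction on both arrays and in the positive fraction on neither. Its ratios were -0.28 and -0.35 (limma adjusted p = 0.24). With the dim side set as for Adh6a, the mean over both arrays was 1.23-fold higher in the negative fraction, which is not a lower limit. The mean ratio turned to 0.39 with median centring. Akr1e1, an anhydrofructose reductase at the end of the run, had the highest mean of the family. Its ratios were 1.28 and 0.41, with a mean of 0.85 that did not pass (limma adjusted p = 0.15). Akr1c20, Akr1c21 and Akr1d1 were above background in neither fraction, and Akr1c6 only in the negative fraction on 1 array.

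**Figure D3:**
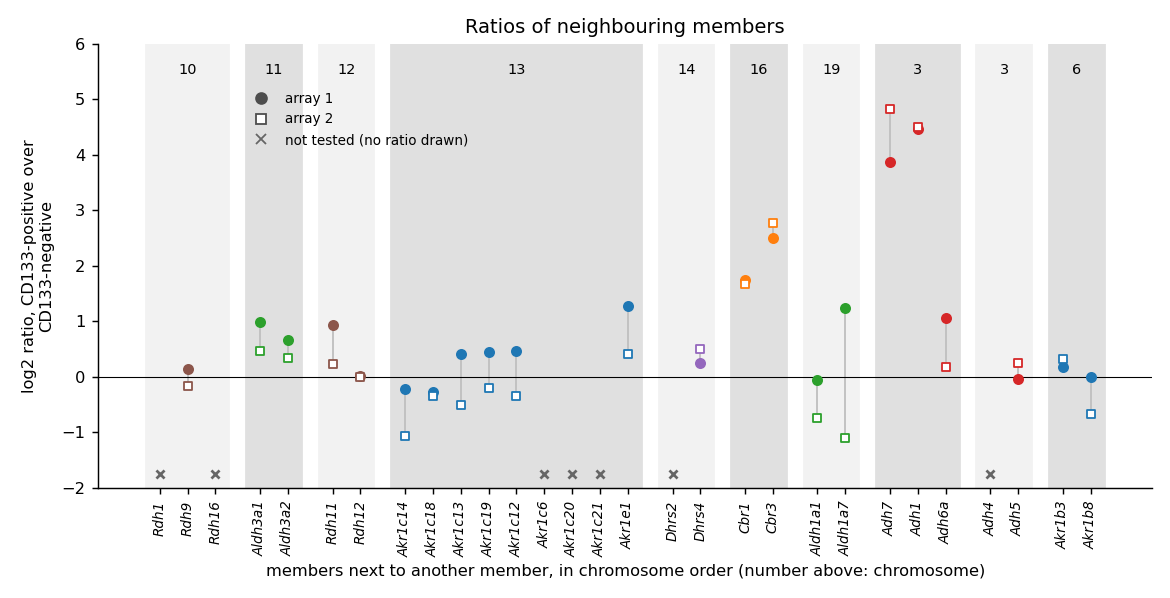
Log2 ratio of CD133-positive over CD133-negative (y axis) for genes of the set that are neighbours among RefSeq protein-coding genes (x axis, in chromosome order, with the chromosome number above). Filled circles are array 1, open squares array 2 and crosses genes not tested; Adh7 with Adh1 and Cbr1 with Cbr3 are the runs in which 2 neighbours were called.

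The genes of the retinol-to-retinoic-acid route gave values on both sides of 0. Rdh10, the main retinol dehydrogenase of the embryo, had log2 intensities of 12.22 and 12.26 in the positive and 13.43 and 12.39 in the negative fraction. Its ratios of -1.21 and -0.12 were both below 0 but far apart, and the mean of -0.67 did not pass (limma adjusted p = 0.26). A second tested Rdh10 probe had ratios of -1.08 and 0.02, so on array 2 it was not below 0. Dhrs9, a retinol dehydrogenase of epithelia, had -0.21 and -0.91 (mean -0.56, limma adjusted p = 0.21). Rdh5, the 11-cis-retinol dehydrogenase of the eye, and Rdh9 had mean ratios of -0.06 and -0.02, and Rdh1 and Rdh16 were above background in neither fraction.

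Rdh7, which belongs to the same chromosome 10 group of retinol and steroid dehydrogenases, had the highest mean ratio of its family. Its log2 intensities were 8.11 and 6.78 in the positive and 6.38 and 6.24 in the negative fraction, so the array 2 values were close. The ratios of 1.73 and 0.54 gave a mean of 1.13 (limma adjusted p = 0.14). Among the enzymes that mostly reduce retinal, Rdh11 had 0.93 and 0.23, Rdh12 0.02 and -0.01, Rdh13 0.18 and 0.41 and Rdh14 0.44 and -0.20. Dhrs3, which reduces retinal and is itself induced by retinoic acid, had -0.27 and 0.45, so its arrays disagreed in sign. None of the 8 tested Rdh genes was called; at an unadjusted limma p under 0.05, 1 was higher and 0 lower, where all tested genes gave 11.89% and 15.98%.

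Of the enzymes that make retinoic acid from retinal, Aldh1a1 was above background and Aldh1a2 and Aldh1a3 were not, in either fraction. Aldh1a1 had log2 intensities of 12.08 and 11.72 in the positive and 12.13 and 12.47 in the negative fraction. Its ratios of -0.05 and -0.75 gave a mean of -0.40 (limma adjusted p = 0.33). Its close paralogue and neighbour Aldh1a7 passed 2-fold on both arrays with opposite signs, as did 3 of all 15267 tested genes, Aldh1a7 included. Aldh1a7 had log2 intensities of 10.12 and 9.24 in the positive and 8.87 and 10.34 in the negative fraction, and ratios of 1.25 and -1.09. Both fractions contributed to this exchange, and its mean of 0.08 describes neither array. Aldh8a1, once described as a 9-cis-retinal dehydrogenase, had ratios of -0.04 and -0.01. Its probe was dim, at 6.25 and 6.31 in the positive and 6.29 and 6.32 in the negative fraction. With median centring its mean was 0.64 and it was called higher.

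Other retinoid genes, in a list of binding proteins, storage enzymes, clearing enzymes and receptors, were tested for 15 of 27 names. Their median ratio was 0.13, with 0.09 on array 1 and -0.49 on array 2, against -0.03 over all tested genes. By limma's adjusted p 1 was called higher and 1 lower, against 1.4% and 0.275% of all tested genes. At an unadjusted limma p under 0.05, 2 were higher and 3 lower (all tested genes, 11.89% and 15.98%). Past 2-fold on both arrays were 1 higher and 3 lower genes, against 2.5% and 2.12% of all tested genes. Ttr, the carrier of thyroxine and of the retinol-binding protein, rose (1.81). Cyp1b1, a cytochrome P450 that also oxidises retinoids, fell by 2.06 on the log2 scale, with ratios of -2.03 and -2.09 (limma adjusted p = 0.023). Rbp4, the plasma retinol carrier, had ratios of -1.46 and -3.31 and Rxra, a nuclear partner of the retinoic acid receptors, -1.003 and -2.23; neither passed (limma adjusted p = 0.091 and 0.094).

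**Figure D4:**
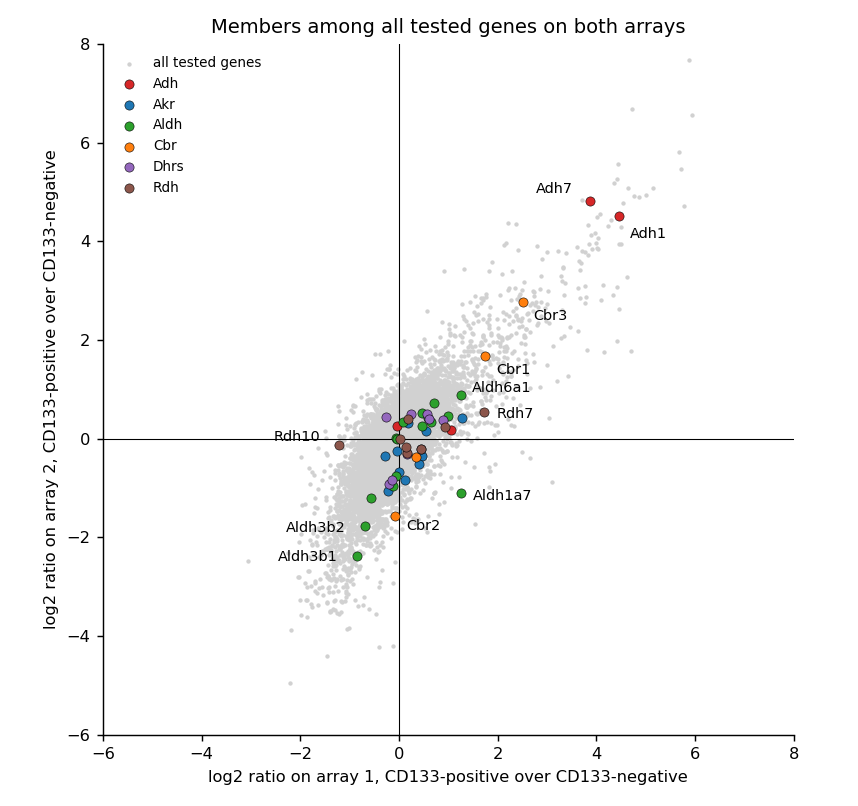
Log2 ratio of CD133-positive over CD133-negative on array 1 (x axis) against array 2 (y axis) for all 15267 tested genes (grey) and the 51 tested genes of the set (coloured by family). Adh1, Adh7, Cbr3 and Cbr1 lie along the upper diagonal, Aldh3b1 and Aldh3b2 at the lower left, and Aldh1a7 at 1.25 and -1.09.

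Aldehyde dehydrogenases were the family with most members, and none was called. Of 20 genes 16 were tested; at an unadjusted limma p under 0.05, 6 were higher and 3 lower, against 11.89% and 15.98% of all tested genes. On both arrays 8 were above 0 and 6 below, against 32.6% and 39.7% of all tested genes. The median of the means was 0.14. Aldh6a1, the methylmalonate semialdehyde dehydrogenase of valine breakdown, had log2 intensities of 11.10 and 10.55 in the positive and 9.85 and 9.67 in the negative fraction, with no overlap. Its ratios of 1.25 and 0.88 gave the highest mean of the family, 1.06 ± 0.16 (moderated SE, n = 2; SD 0.26), just outside the call (limma adjusted p = 0.073). Aldh7a1, which degrades lysine, had 0.47 and 0.52, and Aldh5a1, which oxidises succinic semialdehyde from GABA, had 0.47 and 0.25. Aldh4a1, which completes the oxidation of proline, had 0.08 and 0.34.

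Aldh18a1, which makes the same proline intermediate in the direction of synthesis, was below 0. Its log2 intensities were 9.61 and 9.42 in the positive and 10.16 and 10.62 in the negative fraction, and the fractions did not overlap. The ratios were -0.56 and -1.20 (mean -0.88, limma adjusted p = 0.11). In the list of other folate, proline, GABA and branched-chain genes, 17 of 21 were tested and none was called, with 3 higher and 2 lower at an unadjusted limma p under 0.05 (all tested genes, 11.89% and 15.98%) and a median of 0.15. Prodh, the first enzyme of proline oxidation, had ratios of -0.66 and -1.50, Shmt1, the cytosolic serine hydroxymethyltransferase, 1.07 and 1.01, and Tyms, thymidylate synthase, 0.65 and 1.14. The folate enzyme Aldh1l1 had ratios of -0.06 and 0.01 from a dim probe, with the positive fraction above background on 1 array only. With median centring its mean was 0.65 and it was called higher. The mitochondrial Aldh1l2 was above background only in the negative fraction on 1 array.

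None of the aldehyde dehydrogenases that clear fatty and reactive aldehydes passed. Aldh3a1, known from cornea and stomach, had ratios of 0.99 and 0.46, and its neighbour Aldh3a2, the fatty aldehyde dehydrogenase, had 0.66 and 0.33. Aldh3b1, which protects against lipid-derived aldehydes, was below 0 on both arrays. Its log2 intensities were 10.68 and 9.69 in the positive and 11.54 and 12.07 in the negative fraction, without overlap. The ratios of -0.85 and -2.38 gave the lowest mean of the whole set, -1.62 (limma adjusted p = 0.11). Aldh3b2, its close paralogue, had ratios of -0.69 and -1.78 (mean -1.23, limma adjusted p = 0.11).

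Aldh2, the mitochondrial enzyme that removes acetaldehyde after ethanol oxidation, had log2 intensities of 12.49 and 11.84 in the positive and 12.61 and 12.79 in the negative fraction. Its ratios were -0.12 and -0.95 (mean -0.54, limma adjusted p = 0.26), while Aldh1b1 was above background in neither fraction. Aldh9a1, of carnitine and polyamine metabolism, had 0.58 and 0.43. Aldh16a1, a member without known activity in mammals, had ratios of 0.71 and 0.72 that agreed closely (limma adjusted p = 0.085). Other genes of alcohol, aldehyde and ketone handling were tested for 15 of 21 names and none was called, with 1 higher and 5 lower at an unadjusted limma p under 0.05 (all tested genes, 11.89% and 15.98%) and a median of -0.14. Acss1, the mitochondrial acetyl-CoA synthetase, had ratios of 4.46 and 2.64 (limma adjusted p = 0.066), with the negative fraction above background on 1 array only. Sord, sorbitol dehydrogenase, had -0.78 and -1.56, and Maoa, monoamine oxidase A, -0.71 and -0.95.

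Of the 8 tested Dhrs genes 4 were above 0 on both arrays and 2 below, against 32.6% and 39.7% of all tested genes. Dhrs7, a steroid and retinoid reductase, had log2 intensities of 13.52 and 12.90 in the positive and 12.64 and 12.52 in the negative fraction. Its ratios of 0.89 and 0.39 gave the highest mean of the Dhrs genes, 0.64 (limma adjusted p = 0.14). Dhrs1 had 0.56 and 0.50, Dhrs7b 0.60 and 0.40, and Dhrs4, a peroxisomal carbonyl and retinal reductase, 0.25 and 0.50. Hsd17b11, listed on the array as Dhrs8, had -0.15 and -0.83. It was the only 1 of 12 genes with several tested probes whose probes had mean ratios of different sign. On a single array, tested probes also differed in sign for Akr1c19, Aldh2, Rdh10, Rdh13 and Rdh14. Hsd17b14, listed as Dhrs10, had 0.15 and -0.30, and Dhrs2 and Dhrs7c were above background in neither fraction. None of the 8 tested Dhrs genes was called, with 3 higher and 0 lower at an unadjusted limma p under 0.05 (all tested genes, 11.89% and 15.98%).

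Among short-chain dehydrogenases of other names, 25 of 32 were tested and none was called, with 4 higher and 1 lower at an unadjusted limma p under 0.05 (all tested genes, 11.89% and 15.98%) and a median of -0.07. Hsd3b1, a steroid dehydrogenase, had ratios of 1.03 and 2.09, with the negative fraction above background on 1 array only. Bdh1, which makes the ketone body 3-hydroxybutyrate, had 1.19 and 1.32. Sdr39u1 had -0.42 and -2.29, with the positive fraction above background on 1 array only. Genes of the antioxidant response, a programme driven by NRF2 that is known to include carbonyl and aldo-keto reductases, were all measured. Of 29, Gsta1 (1.77, limma adjusted p = 0.034) and Gsta2 (1.55, limma adjusted p = 0.039) were called higher and none was called lower. Over all tested genes 1.4% were called higher and 0.275% lower. Both are glutathione transferases and near-identical to each other. At an unadjusted limma p under 0.05, 10 of the list were higher and 5 lower (all tested genes, 11.89% and 15.98%). At least 2-fold on both arrays were 5 higher and 0 lower, against 2.5% and 2.12% of all tested genes. Gpx2, a glutathione peroxidase of the gut lining, had ratios of 1.65 and 2.86, and Nqo1, a quinone reductase, 1.53 and 2.57, neither of which passed (limma adjusted p = 0.070 and 0.068). The list's median of 0.11 equalled that of the enzyme set to 2 decimals. On both arrays 14 of its genes were above 0 and 10 below, against 32.6% and 39.7% of all tested genes. The lowest mean ratios of the list were -1.27 for Me1 and -0.99 for Abcc1, neither of them called.

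Over the whole set the values leaned slightly upward. Of the 51 tested genes 23 (45.1%) were above 0 on both arrays, 14 below and 14 mixed, against 32.6%, 39.7% and 27.8% of all tested genes. The median mean ratio was 0.11, from 0.24 on array 1 and 0.01 on array 2, against -0.03 over all genes. The arrays differed in which side was long. On array 1, 9 genes (17.6%) were at least 2-fold higher and 1 lower, against 3.69% and 2.67% of all genes; on array 2, 4 (7.84%) were higher and 6 (11.8%) lower, against 4.19% and 7.91%. Rdh10 was the only gene of the set at least 2-fold lower on array 1, and it was at -0.12 on array 2. The positive fraction was above background on both arrays for 48 of the 65 genes and the negative fraction for 50, and 12 were above background in neither.

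**Figure D5:**
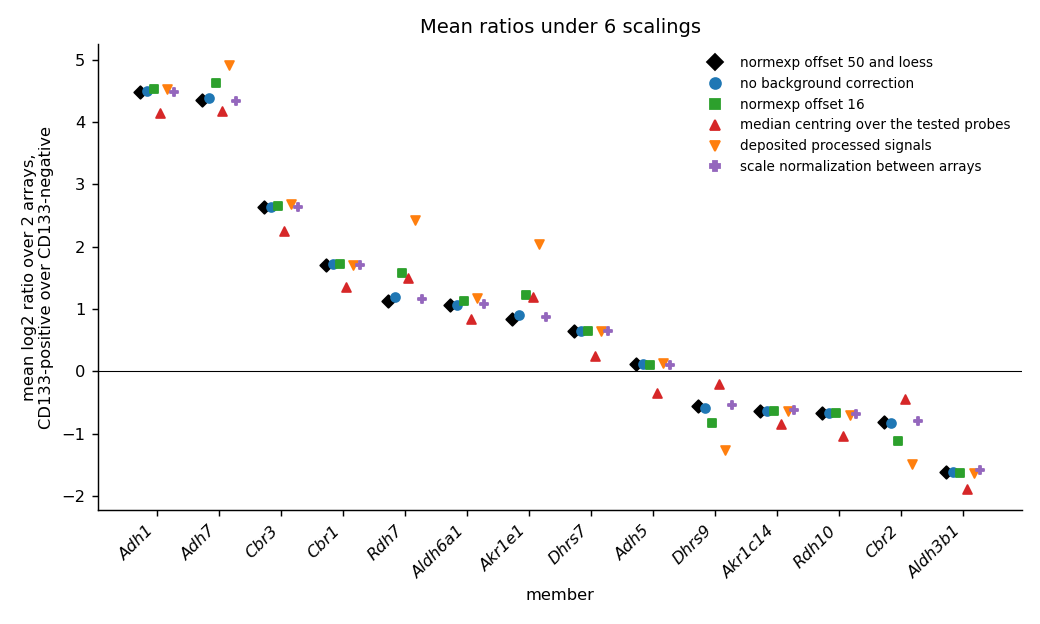
Mean log2 ratio over 2 arrays (y axis) of 14 genes (x axis) under 6 ways of correcting background and scaling the channels, 1 symbol each. Adh1 stays between 4.14 and 4.53, Adh7 between 4.17 and 4.91, Cbr3 between 2.24 and 2.68 and Cbr1 between 1.36 and 1.73, while the dim probes of Rdh7, Akr1e1, Dhrs9 and Cbr2 spread most and Adh5 crosses 0.

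The mean kept its sign under the 5 other scalings in 36 of 51 tested genes. The other 15, which changed sign under at least 1, were Adh5, Akr1b3, Akr1b7, Akr1c12, Akr1c18, Akr1c19, Aldh1a7, Aldh1l1, Aldh8a1, Dhrs3, Hsd17b14, Rdh5, Rdh9, Rdh12 and Rdh14.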

How the data were processed

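Total RNA (Trizol) of both fractions was amplified and labelled with Agilent's low-input two-colour kit and hybridised to 2 arrays of 45018 spots on the same slide, per the labels' protocols and the file headers. The deposited files are the output of Agilent Feature Extraction 9.5.3.1: spot intensity in each channel, flags, a log10 ratio of Cy5 over Cy3 and its p-value, all made by the authors' scanner program per the file headers. A deposited value table equals that log10 ratio on every spot, to within 1e-06.

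Mean and background intensities were corrected with normexp (offset 50) and normalised by loess in limma 3.58.1 (R 4.3.3), with control spots at weight 0; signs were turned to CD133-positive over CD133-negative. Probes well above background in 1 channel on both arrays (at least 50% of unflagged spots per array) without outlier flags were kept, 23173 in all and 64 of the set. limma's moderated test (1 residual degree of freedom, 2.87 prior) was adjusted by Benjamini-Hochberg over all genes; with 2 arrays, their number limits the precision. Channel intensities were scaled between arrays with Aquantile only for display and for the fold values of Adh6a and Akr1c18 that set a dim side. Both arrays share slide and scan, so no batch could be fitted. Deposited log10 ratios were converted to log2 where named. The steps were tested on simulated data.

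Names were updated through RefSeq GRCm38.p6 by accession (22951 probes) or symbol (9768); 8455 kept the file's name. Promoters are from RefSeq. The build of the probe positions in the files is not given in the sources used here, and they were not used. The genes of the set, the other lists and the markers were chosen with earlier results of these data known. Genes named were the called ones, those 2-fold changed on both arrays, the highest and lowest of each family, up to 3 of each other list by size with the same sign on both arrays, and, to list each role in full, the remaining members. Gsta2, 1 of 2 called genes of its list, Rxra, Me1 and Abcc1 were named after their values were seen. Alternatives changed the background correction, normalisation, filter, probe rule or variance model, or left out an array.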

Additional observations from a re-analysis of the deposited data

How the results depend on the processing

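Adh1 was called higher in 9 of 10 alternatives with both arrays, and Adh7, Cbr1 and Cbr3 in 8. Against 4 genes called higher and 0 lower, median centring in place of loess called 11 higher and 3 lower, no filter on dim probes called 1 higher, and no moderation of the variance called 0 (and 0 of all 15267 genes; at an unadjusted moderated p under 0.05, 15 of the set were higher and 3 lower, and 1815 and 2439 of all genes). Over all genes the calls were 214 higher and 42 lower, and 275 and 110 without background correction, 404 and 158 with normexp offset 16, 2045 and 2044 with median centring, 317 and 192 with scale normalisation, and 30 and 0 without the filter, which tested 27667 genes. Genes at least 2-fold higher on both arrays numbered 8 with the deposited processed signals, and those at least 2-fold lower 1 with either these or median centring. With 1 array left out, the counts past 2-fold were 4 to 9 higher and 1 to 6 lower; 9 and 1 are array 1 alone. The mean ratio of Adh5 became -0.36 with median centring, and with 1 array left out ran from -0.033 to 0.25. The cause of these changes was not tested. The median of the set moved by less than the spread between arrays in the alternatives run. Dim probes are limited by their signal over background, since the offset shrinks their ratios. Each ratio already pairs the fractions within an array, so no further replicate block was fitted.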

Other observations

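Dim genes of the set had larger ratios in the deposited processed signals, which carry no offset. On the log2 scale of CD133-positive over CD133-negative, the deposited ratios were 3.22 and 0.87 for Akr1e1, 2.94 and 1.93 for Rdh7, -0.12 and -2.85 for Cbr2 and -0.43 and -2.08 for Dhrs9. For the called genes the deposited values were 4.49 and 4.56 for Adh1 (second probe 5.84 and 5.79), 4.21 and 5.61 for Adh7, 2.55 and 2.81 for Cbr3 and 1.72 and 1.68 for Cbr1. Those of Adh7 and of the second Adh1 probe exceeded the loess ratios, which were 3.87 and 4.83 for Adh7 and 5.35 and 5.18 for the second Adh1 probe.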
